A study of Mus musculus with 19 samples.

Results

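The general mRNA decay machinery was followed here as 42 genes chosen by function: 12 genes of 3'-to-5' decay (11 of the RNA exosome with its catalytic subunits, and the related nuclease gene Dis3l2), 11 of decapping and 5'-to-3' decay, 14 of deadenylation, 3 of the Ski complex and 2 of ribosome rescue. All 42 had a row in the count table of 41388 genes, and all 42 were among the 17137 genes that passed the low-count filter and were tested. The samples were single mouse blastocysts at the early blastocyst stage, each sequenced as its own library: 8 Upf2-null blastocysts and 11 control (Upf2+/+) blastocysts. The null allele lacks exons 2 and 3 of Upf2 after recombination by an EIIa-driven Cre that acts in the early embryo, and a truncated protein without NMD activity is still made. Both genotypes came from crosses of heterozygous mice on a C57BL/6 background, with superovulated mothers aged 4 to 8 weeks. The paper describes early blastocysts as cultured from the zygote stage in M16 medium until 90 to 94 h after hCG injection. Its sequencing methods do not say separately how the sequenced embryos were obtained. The genotype of each embryo was read from its own cDNA.

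Most mRNAs are destroyed by a route that does not involve nonsense-mediated decay (NMD). Deadenylases first shorten the poly(A) tail. The body is then degraded from its 3' end by the RNA exosome, which the Ski complex feeds in the cytoplasm, or is decapped and degraded from its 5' end by an exonuclease. UPF2 belongs to the NMD pathway, which marks mRNAs with a premature stop codon and hands them to the same decapping, deadenylating and exonucleolytic enzymes. The comparison asks whether the transcripts of these downstream enzymes differed between Upf2-null and control blastocysts. The authors state that UPF2 from the oocyte may have affected the phenotype, and that they could not test this.

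Library totals lay between 4068350 and 5993745 counts in Upf2-null blastocysts and between 4056072 and 5854659 counts in control blastocysts, and no gene had more than 4884 counts in any library. Total counts for the whole Upf2 gene were not lower in the nulls: Upf2 ranged from 64.3 to 123 CPM (counts scaled to library size) with a median of 88.7 in Upf2-null blastocysts, against 37.2 to 87.8 CPM with a median of 55.2 in control blastocysts. Because the count covers the whole gene, it does not check the loss of the 2 exons. Trophectoderm markers were present in both genotypes, with a summed level of 918 to 1445 CPM over 7 genes in Upf2-null blastocysts and 747 to 1615 CPM in control blastocysts. Of the 7, Elf5 was barely detected, at a mean of 0.417 CPM in Upf2-null and 0.651 CPM in control blastocysts. The 5 epiblast markers summed to 253 to 372 CPM with a median of 310.1 in Upf2-null blastocysts. In control blastocysts they summed to 356 to 606 CPM with a median of 442. Of the 5, 2 (Nanog and Fgf4) were lower at an adjusted p under 0.1 by DESeq2 but none by edgeR. Nanog had the highest level of the 5, at a mean of 175 CPM in Upf2-null and 243 CPM in control blastocysts. By edgeR the log2 fold change was −0.47 for Pou5f1, −0.74 for Klf2 and 0.09 for Sox2. The 5 primitive endoderm markers summed to 131 to 228 CPM in Upf2-null blastocysts and 95.1 to 229 CPM in control blastocysts. Markers of cumulus and granulosa cells summed to at most 12.05 CPM in Upf2-null blastocysts and 4.58 CPM in control blastocysts, with Has2, Ptx3, Tnfaip6, Fst and Amh at a median of 0 in both. Star had a median of 2.48 CPM and a highest value of 11.9 CPM in Upf2-null blastocysts. In control blastocysts its median was 0.213 CPM and its highest value 3.46 CPM, and the adjusted p was 0.454 by edgeR. Cyp11a1 had a median of 0.215 CPM in Upf2-null and 0 CPM in control blastocysts. The 7 oocyte markers summed to 0.531 to 30.9 CPM in Upf2-null blastocysts and 0.442 to 81.2 CPM in control blastocysts. In counts from a whole embryo, fewer cells of one type and less RNA per cell cannot be told apart. By staining other blastocysts, the paper counted fewer NANOG-positive cells in Upf2-null than in wild-type ones. It found no significant difference in total, CDX2-positive or GATA6-positive cells.

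Promoter sequences are shown for 3 members on which the results below turn: Pnrc2, the 1 member that passed the edgeR test, and Exosc3 and Exosc8, exosome subunits whose levels varied across embryos in different ways. They are the RefSeq windows of build GRCm38.p6, from 250 bases before to 50 bases after the start of transcription, written 5' to 3' on the gene's own strand, which is the minus strand in each case. Pnrc2 lies at chr4:135873797-135874096, Exosc3 at chr4:45320567-45320866 and Exosc8 at chr3:54735315-54735614. Capitals mark the CCAAT box, the GC box and the ETS motif, each on either strand.
Pnrc2: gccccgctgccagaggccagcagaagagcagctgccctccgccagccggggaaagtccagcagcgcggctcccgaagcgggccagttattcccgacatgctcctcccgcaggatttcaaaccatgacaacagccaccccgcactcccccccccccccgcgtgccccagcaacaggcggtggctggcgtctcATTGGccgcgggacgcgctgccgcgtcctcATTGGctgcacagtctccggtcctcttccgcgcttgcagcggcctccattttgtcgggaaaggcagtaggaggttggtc
Exosc3: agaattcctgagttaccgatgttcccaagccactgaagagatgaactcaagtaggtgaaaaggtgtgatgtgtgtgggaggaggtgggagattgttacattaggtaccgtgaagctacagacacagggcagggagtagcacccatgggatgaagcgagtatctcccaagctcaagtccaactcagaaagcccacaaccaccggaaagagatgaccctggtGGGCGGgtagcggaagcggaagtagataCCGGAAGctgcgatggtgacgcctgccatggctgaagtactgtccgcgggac
Exosc8: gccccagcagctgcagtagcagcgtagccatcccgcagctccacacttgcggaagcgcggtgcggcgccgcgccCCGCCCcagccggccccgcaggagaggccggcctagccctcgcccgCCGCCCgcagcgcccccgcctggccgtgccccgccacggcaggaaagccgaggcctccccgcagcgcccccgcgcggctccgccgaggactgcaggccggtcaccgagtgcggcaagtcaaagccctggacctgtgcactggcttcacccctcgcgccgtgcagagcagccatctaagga

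The Pnrc2 window held 2 CCAAT boxes (CCAAT), both on the opposite strand, and no GC box. The Exosc3 window held 1 GC box (GGGCGG) and 1 ETS motif (CCGGAAG), and the Exosc8 window 2 GC boxes. RefSeq windows were found for 33 of the 42 members. A GC box was present in 22 of these 33 (66.7%), against 35.7% of all 32851 promoter windows of the same length. An ETS motif was present in 10 (30.3%), against 8.86% of all windows, and the palindromic NRF1 motif in 3 (9.09%; Exosc5, Hbs1l and Ttc37), against 0.971%. CCAAT was found in 11 (33.3%), against 37.4%, and the E-box CACGTG in 3 (9.09%), against 7.15%. The CRE TGACGTCA and the CARE TGATGNAAN, searched on both strands as all the others were, matched no member window, against 1.79% and 3.95% of all windows. These are matches of letters in a window and not sites of binding.

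Of the 42 decay genes, 1 was higher and 0 were lower in Upf2-null blastocysts by edgeR's quasi-likelihood test at a Benjamini-Hochberg adjusted p under 0.1. Over all genes tested the shares called were 0.175% higher and 0.0175% lower. DESeq2 called 1 member higher and 0 lower (0.595% and 0.432% of all genes), and limma voom called 2 higher and 0 lower (0.514% and 0.14%). At an unadjusted edgeR p under 0.05, 1 member was higher (2.38% of the 42, against 5.15% of all genes) and 3 were lower (7.14%, against 7.38%), so the members were not called more often than all genes at that level. The median log2 fold change of the 42 was −0.02, and that of all genes tested was also −0.02. For 34 members (81.0%) the 95% interval of the log2 fold change lay within 1 of 0, that is, within a doubling or a halving, against 39.9% of all genes. The median SD of log2 CPM among control blastocysts was 0.36 for the members and 0.78 for all genes. Neither contrast was matched for expression level, and the filter admitted genes with 10 counts in only 1 embryo. No member had groups that did not overlap, against 0.0934% of all genes.

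**Figure D1:**
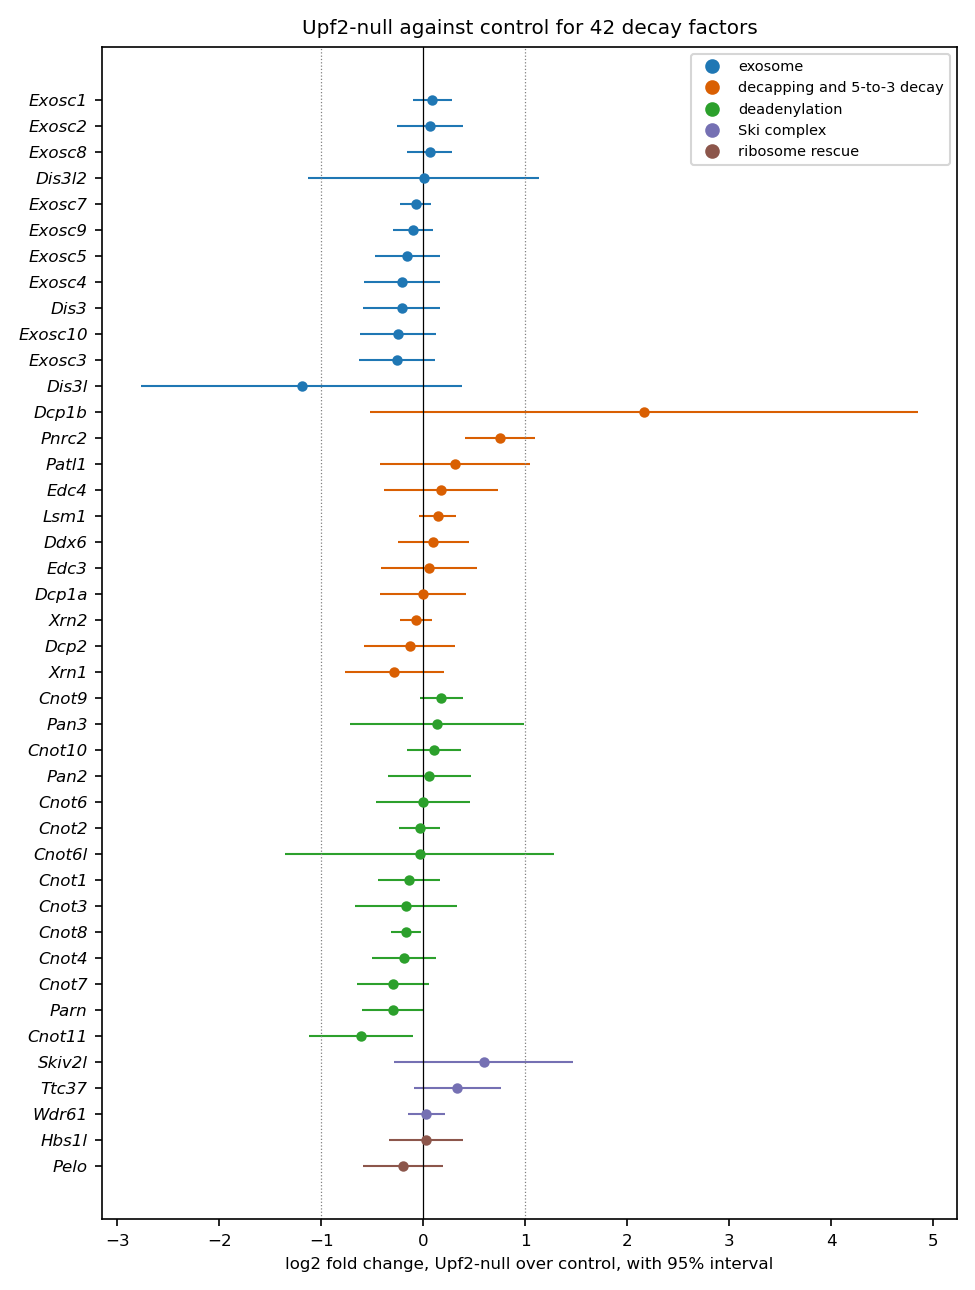
Log2 fold change of each of the 42 decay genes, Upf2-null over control, with its 95% interval from edgeR (x axis); genes are coloured by role (Dis3l2 with the exosome) and the dotted lines mark −1 and 1. Pnrc2 at 0.75 is the 1 gene called, and the widest intervals are those of Dcp1b and Dis3l.

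Pnrc2 was the 1 decay gene that passed. PNRC2 is a proline-rich adaptor that in human cells joins the NMD factor UPF1 to the decapping complex. Its level ran from 145 to 214 CPM with a median of 181 CPM in Upf2-null blastocysts, against 54.0 to 156 CPM with a median of 94.0 CPM in control blastocysts. All 8 Upf2-null blastocysts lay above the control median, and 6 of the 8 lay above the highest control. The groups overlapped through Upf2-null embryos 1 and 3, at 148 and 145 CPM, and control embryos 5 and 9, at 149 and 156 CPM. As means with SDs, 8 Upf2-null embryos gave 181 ± 26.3 CPM, and 11 control embryos gave 108 ± 32.6 CPM. The log2 fold change was 0.75 (SE 0.16, 95% interval 0.41 to 1.1), with an adjusted p of 0.0920 by edgeR, 0.00520 by DESeq2 and 0.0228 by limma voom.

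The Pnrc2 call was close to the threshold. It was lost, with adjusted p from 0.109 to 0.175 by edgeR, when any 1 of Upf2-null embryos 2, 4, 5, 6, 7 or 8 or control embryos 1, 3, 4, 7, 8, 10 or 11 was left out. The log2 fold change stayed between 0.68 and 0.82 in all 19 such fits. Leaving out Upf2-null embryos 4, 5 and 7 with control embryo 6, an alternative added after the data were seen, gave 0.69 with an adjusted p of 0.398. The part of the lower summed epiblast level in the Pnrc2 difference was not tested. Pnrc2 lies on chromosome 4, minus strand, at 135870918 to 135873850 of GRCm38, and no other annotated gene overlaps its exons. Its main transcript has a 5' leader of 400 bases with 2 upstream open reading frames and a 3' UTR of 1096 bases. Neither upstream frame has an exon junction more than 50 bases past its own stop. The main transcript has no exon junction more than 50 bases past its stop codon. None of the 3 annotated Pnrc2 transcripts is classed as an NMD substrate.

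**Figure D2:**
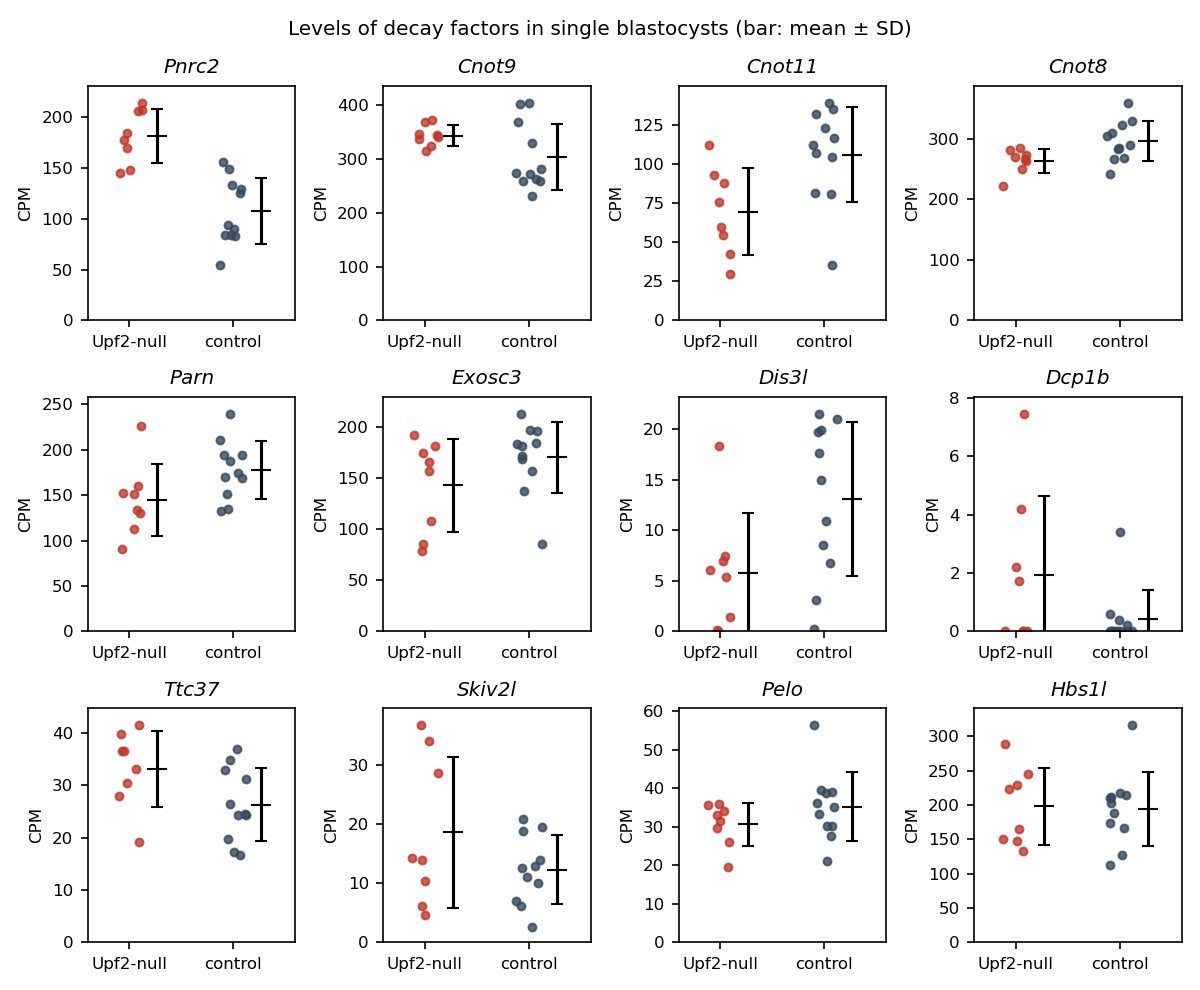
Level in CPM of 12 decay genes in each blastocyst, Upf2-null at the left and control at the right of each panel; points are embryos and the bars give the mean ± SD (n = 8 and 11). Pnrc2 has 6 of 8 Upf2-null points above every control point, and the groups overlap in all 12 panels.

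The other 10 decapping and 5'-to-3' decay genes did not pass by any of the 3 tools. DCP2 is the decapping enzyme, and DCP1A and DCP1B are its activators. The log2 fold change was −0.13 for Dcp2 (36.7 against 40.2 CPM), −0.00 for Dcp1a (67.4 against 67.6 CPM) and 2.16 for Dcp1b, each Upf2-null mean before the control mean. Dcp1b was barely detected, with 80 counts in all over the Upf2-null blastocysts and 22 over the control blastocysts. Its values ran from 0 to 7.44 CPM with a median of 0.871 CPM in Upf2-null blastocysts and from 0 to 3.40 CPM with a median of 0 in control blastocysts, and it was at 0 in 4 of 8 and 7 of 11 embryos. The groups overlapped, its 95% interval of −0.52 to 4.85 included 0, and the adjusted p was 0.567 by edgeR.

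The enhancers of decapping gave 0.06 for Edc3, 0.17 for Edc4, 0.31 for Patl1, 0.10 for the helicase gene Ddx6 and 0.14 for Lsm1, a subunit of the ring that binds shortened tails, as log2 fold changes. Of these, Patl1 was the least certain, with an interval of −0.43 to 1.05. The exonuclease genes Xrn1, cytoplasmic, and Xrn2, nuclear, were at −0.28 and −0.07. None of these 7 passed any test. The 11 genes summed to 944 to 1112 CPM in Upf2-null blastocysts, with a median of 1010.0 CPM, and to 851 to 999 CPM in control blastocysts, with a median of 932 CPM. Without Pnrc2 the medians were 819.7 CPM in Upf2-null blastocysts and 845 CPM in control blastocysts.

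The deadenylation genes were the group with the most members at an unadjusted edgeR p under 0.05. These were 3 of 14, all lower in Upf2-null blastocysts (21.4% of the group, against 7.38% of all genes), and none of the 3 passed the adjusted test. The group's median log2 fold change was −0.09. Of the 14, 4 were above and 10 below 0, and over all genes tested 8172 were above and 8965 below. Cnot11 encodes a subunit of the CCR4-NOT complex. It ran from 29.8 to 112 CPM with a median of 67.8 CPM in Upf2-null blastocysts, against 35.7 to 139 CPM with a median of 112 CPM in control blastocysts. Of the 8 Upf2-null blastocysts, 7 were below the control median, and the groups overlapped. Its difference was −0.61 (SE 0.24) as a log2 fold change, with an adjusted p of 0.284 by edgeR. The lowest Cnot11 values were in Upf2-null embryos 4, 5 and 7 and control embryo 6, a pattern described below.

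Cnot8 encodes one of the paired catalytic subunits of CCR4-NOT. It ran from 222 to 285 CPM with a median of 268 CPM in Upf2-null blastocysts and from 242 to 359 CPM with a median of 289 CPM in control blastocysts. All 8 Upf2-null blastocysts were below the control median, and the groups overlapped. As a log2 fold change this was −0.17 (SE 0.07), with an adjusted p of 0.320 by edgeR. Parn encodes a deadenylase that acts on its own. It ran from 90.8 to 226 CPM with a median of 142 CPM in Upf2-null blastocysts and from 133 to 239 CPM with a median of 175 CPM in control blastocysts. Its log2 fold change was −0.30 (SE 0.14), with an adjusted p of 0.396 by edgeR, and the groups overlapped.

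Cnot9, which encodes an adaptor subunit of CCR4-NOT, was called by limma voom and by neither other tool. It ran from 314 to 372 CPM with a median of 342 CPM in Upf2-null blastocysts and from 231 to 403 CPM with a median of 274 CPM in control blastocysts. All 8 Upf2-null blastocysts lay above the control median and inside the control range. Its log2 fold change was 0.18 by edgeR, with an adjusted p of 0.533, and 0.31 by limma voom, with an adjusted p of 0.0980.

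The other CCR4-NOT genes did not pass by any of the 3 tools. As log2 fold changes, Cnot1, the scaffold, was at −0.14, Cnot2 at −0.03, Cnot3 at −0.17 and Cnot10 at 0.11. Cnot4, a ubiquitin ligase, was at −0.19. Of the catalytic subunits, Cnot7, the close relative of Cnot8, was at −0.29, Cnot6 at −0.00 and Cnot6l at −0.03. The PAN2-PAN3 deadenylase genes Pan2 and Pan3 were at 0.06 and 0.13. The interval of Cnot6l, −1.36 to 1.29, left a change of more than a doubling in either direction within its bounds.

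The 12 genes of 3'-to-5' decay had no call by edgeR, DESeq2 or limma voom, and 0 of 12 had an unadjusted edgeR p under 0.05. Their median log2 fold change was −0.13, with 4 above and 8 below 0. Without Dis3l2, the 11 exosome genes had a median of −0.15, with 3 above and 8 below 0. The summed level of the 12 ran from 1530 to 1875 CPM with a median of 1785 CPM in Upf2-null blastocysts and from 1472 to 2388 CPM with a median of 1783 CPM in control blastocysts. Of the ring subunits, Exosc4 was at −0.20, Exosc5 at −0.15, Exosc7 at −0.07, Exosc8 at 0.06 and Exosc9 at −0.10. Among the cap subunits, which sit on the ring and bind RNA, Exosc1 was at 0.09, Exosc2 at 0.07 and Exosc3 at −0.26. The catalytic subunits were Dis3 at −0.21 and Exosc10 at −0.25.

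Exosc3 and Dis3l had the 2 lowest p-values of these 12. Exosc3 ran from 78.4 to 193 CPM with a median of 161 CPM in Upf2-null blastocysts and from 86.0 to 212 CPM with a median of 181 CPM in control blastocysts. The ranges overlapped, and the adjusted p was 0.664 by edgeR. The lowest Exosc3 values were in Upf2-null embryos 4, 5 and 7 and control embryo 6, a pattern described below. Dis3l, which encodes a cytoplasmic exosome nuclease, ran from 0 to 18.3 CPM with a median of 5.71 CPM in Upf2-null blastocysts and from 0.221 to 21.4 CPM with a median of 14.9 CPM in control blastocysts. In 7 of 8 Upf2-null blastocysts it was below the control median. The log2 fold change of −1.19 had an interval of −2.76 to 0.38 and an adjusted p of 0.608 by edgeR.

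Dis3l2 encodes a nuclease that works without the exosome and degrades uridylated RNA. It ran from 8.67 to 36.5 CPM with a median of 20.96 CPM in Upf2-null blastocysts and from 1.65 to 108 CPM with a median of 12.4 CPM in control blastocysts. In 7 of 8 Upf2-null blastocysts it was above the control median, and the highest value was in control embryo 5, followed among the controls by 27.3 CPM in embryo 3. Its log2 fold change was 0.00 by edgeR (95% interval −1.13 to 1.14), 0.71 by edgeR without control embryo 5, and 0.57 by limma voom with all embryos. Over all 33 refits it ran from −0.47 to 0.74, and Dis3l2 was called in 0 of them.

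Within each genotype, the exosome genes fell into sets that varied differently from embryo to embryo. Exosc2, Exosc3, Exosc4 and Exosc5 went together. The Pearson r of their deviations from the genotype means was 0.85 to 0.96 over the 6 pairs and 19 embryos. Exosc1, Exosc7, Exosc8 and Exosc9 had r of 0.44 to 0.86 with each other, and −0.65 to 0.02 with the first set. Over all 861 pairs of members the median r was −0.03. These sets were formed after the values were seen and are a description. The embryos share a protocol, an amplification step and the normalization.

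Exosc4 shows the pattern in its values. It was at 81.2, 105 and 76.9 CPM in Upf2-null embryos 4, 5 and 7, and between 174 and 195 CPM in the other 5 Upf2-null embryos. It was at 102 CPM in control embryo 6, and at 151 to 214 CPM in the other 10 control embryos. The same 4 embryos held the 4 lowest of 19 values for 5 members: Exosc3, Exosc4, Exosc10, Cnot7 and Cnot11. Exosc8, by contrast, was at 301, 230.1 and 272 CPM in Upf2-null embryos 4, 5 and 7 and at 260.0 CPM in control embryo 6. The low embryos thus belonged to both genotypes, with more of them Upf2-null than control. Over all 33 refits the log2 fold change ran from −0.33 to −0.03 for Exosc3 and from −0.27 to 0.05 for Exosc4. It ran from −0.36 to −0.06 for Exosc10, −0.36 to −0.10 for Cnot7 and −0.74 to −0.40 for Cnot11.

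Beside this pattern stood a difference in GC content. For each embryo the slope of its log2 CPM deviation on gene GC content was taken over 7827 genes with a mean of at least 20 CPM. The slope, in log2 per 10 percentage points of GC, was −0.55, −0.29 and −0.43 in Upf2-null embryos 4, 5 and 7 and −0.35 in control embryo 6. It was also −0.34 in control embryo 2, where Exosc4 was not low, at 183 CPM. Within genotype, r between the slope and the deviation was 0.80 for Exosc4, 0.81 for Cnot11, 0.72 for Cnot7 and −0.88 for Exosc8. The exon GC content was 54.9% for Exosc4, 51.8% for Cnot11, 38.2% for Cnot7 and 42.1% for Exosc8. An r above 0.8 with Exosc4 was found for 6 other members, and for 592 of the other 7840 genes with a mean above 20 CPM (7.55%). The part of GC content in this pattern was not tested.

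**Figure D3:**
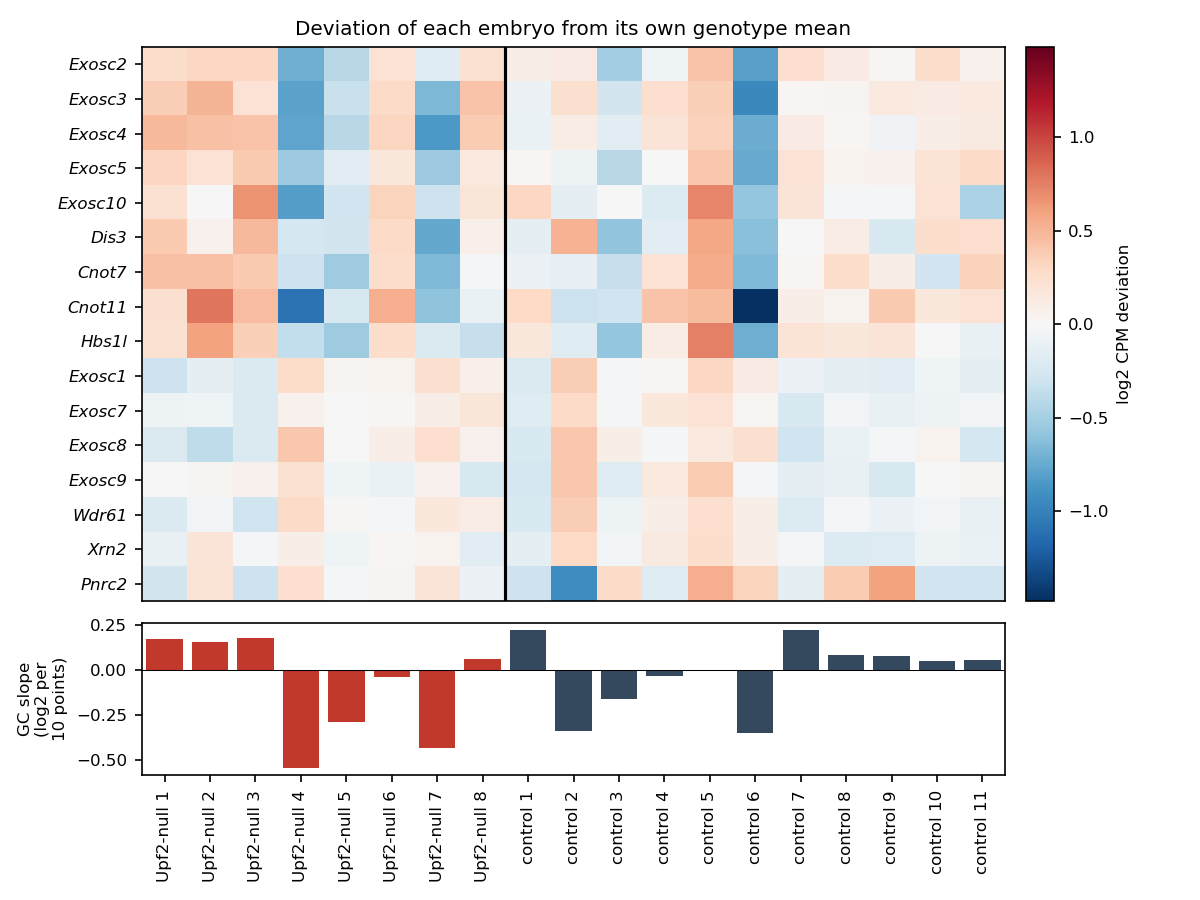
Upper panel: deviation of log2 CPM in each embryo from the mean of its own genotype, for 16 members (rows), with the 8 Upf2-null embryos left of the line and the 11 control embryos right of it. Lower panel: the GC slope of each embryo in log2 per 10 percentage points; the upper 9 genes are mostly low in Upf2-null 4, 5 and 7 and control 6, where the slope is −0.55, −0.29, −0.43 and −0.35.

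The 3 Ski complex genes were all above 0 by edgeR, and 0 passed by any of the 3 tools or at an unadjusted edgeR p under 0.05. SKIV2L is the helicase of the complex and TTC37 its scaffold. Ttc37 ran from 19.3 to 41.5 CPM with a median of 34.8 CPM in Upf2-null blastocysts and from 16.7 to 37.0 CPM with a median of 24.4 CPM in control blastocysts, for a log2 fold change of 0.33 and an adjusted p of 0.585 by edgeR. Skiv2l ran from 4.58 to 36.8 CPM with a median of 14.2 CPM in Upf2-null blastocysts and from 2.69 to 20.95 CPM with a median of 12.6 CPM in control blastocysts, for a log2 fold change of 0.59 and an adjusted p of 0.673 by edgeR. Both pairs of ranges overlapped. Wdr61 was at 0.03 and took the other sign in 4 of 33 alternative fits. About 33.9% of the exon bases of Wdr61 are shared with Dnaja4 on the opposite strand.

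The ribosome rescue genes, Pelo and its partner Hbs1l, free ribosomes that stall on an mRNA. Pelo ran from 19.6 to 35.8 CPM with a median of 32.2 CPM in Upf2-null blastocysts and from 21.02 to 56.3 CPM with a median of 35.2 CPM in control blastocysts, for a log2 fold change of −0.20. Hbs1l ran from 133 to 289 CPM with a median of 194 CPM in Upf2-null blastocysts and from 113 to 316 CPM with a median of 202 CPM in control blastocysts, for a log2 fold change of 0.03. Neither passed, with adjusted p of 0.803 and 0.988 by edgeR.

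Levels could be set side by side only per length, as CPM per kilobase of the union of a gene's exons. The members spanned a wide range. In control blastocysts Exosc3 was the highest, at 129 ± 26.2 (SD, n = 11), followed by Cnot8 at 112 ± 12.5 and Exosc4 at 88.2 ± 14.96. These SDs are spreads between embryos. All genes were measured in the same 11 embryos, so the SDs do not measure the spread of a difference between genes, which was not tested. The lowest were Pan3 at 1.62 ± 1.00, Cnot6l at 0.914 ± 0.647 and Dcp1b at 0.0656 ± 0.159. Ranks depended on the length used. With the longest transcript as length, Pan3 was at 4.36 in control blastocysts, above Skiv2l at 2.73 and Dis3l at 3.58. Pnrc2 was the 4th highest in Upf2-null blastocysts, at 82.0 ± 11.9 (SD, n = 8), and the 11th highest in control blastocysts, at 48.6 ± 14.7. In both genotypes Xrn2, at 72.0 ± 5.72 in Upf2-null and 75.6 ± 9.31 in control blastocysts, was far above Xrn1, at 2.55 ± 0.902 and 3.10 ± 0.805.

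**Figure D4:**
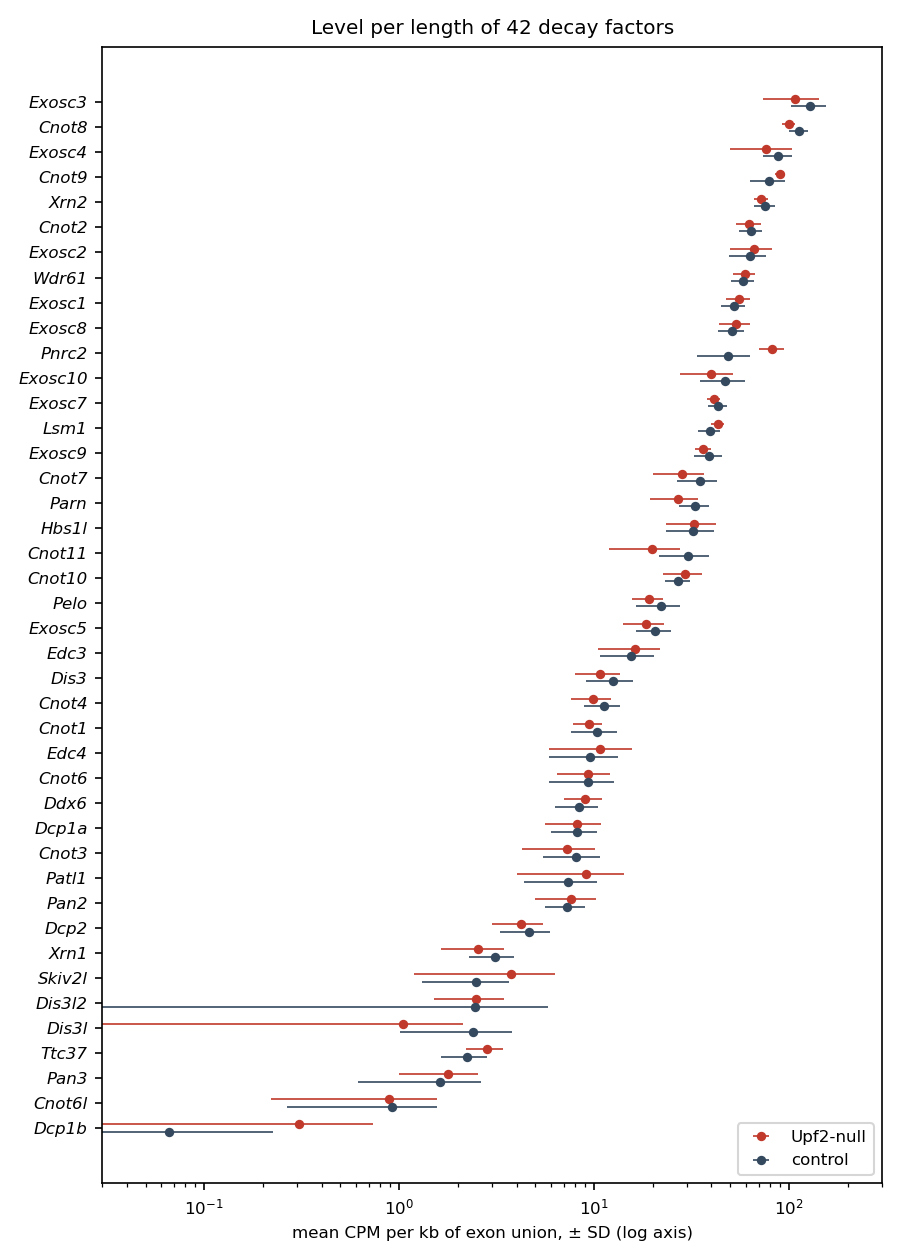
Mean level of the 42 decay genes per kilobase of exon (log axis), Upf2-null in red above control in dark blue, ± SD over 8 and 11 embryos; lower bars that would reach 0 run to the edge of the axis. Exosc3 is the highest gene in both genotypes and Pnrc2 stands at 82.0 in Upf2-null and 48.6 in control blastocysts.

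Annotated features of the members were set beside those of all coding genes, with no test. An annotated transcript of the NMD class was present for 22 of the 42 (52.4%), against 26.6% of the 14287 coding genes tested. The median log2 fold change was −0.00 for these 22 and −0.07 for the other 20. An upstream open reading frame lay in the leader of the main transcript of 19 members (45.2%), against 42.8% of coding genes, and their median was 0.03, against −0.07 for the 23 without. No member's main transcript had a junction more than 50 bases past the stop codon, against 0.371% of coding genes. Counts per gene do not tell transcripts of a gene apart. Cnot1, Cnot3, Cnot8, Hbs1l and Pelo match another annotated gene, with no overlap recorded, at 95% identity or more over at least 200 bases. Their counts are less certain for this reason. For Cnot1 and Hbs1l, such a gene was in the count table and lay elsewhere in the genome. For Cnot3, Cnot8 and Pelo, no such gene was in the count table, and its place in the genome was not established. Edc3 shares 22.1% of its exon bases with Clk3 and Exosc4 shares 19.8% with Oplah, each on the opposite strand, and reads of such pairs cannot be told apart where counting did not use strand.

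Of 54 tested factors outside NMD (exosome cofactors, the Lsm ring, decapping partners, deadenylase recruiters and tail factors, and ribosome quality control), 0 were called by edgeR or limma voom. DESeq2 called 1 lower, against 0.432% of all genes. At an unadjusted edgeR p under 0.05, 2 were lower (3.70%, against 7.38% of all genes) and 0 were higher (against 5.15%). Their median log2 fold change was −0.01. Pabpc4, a cytoplasmic poly(A)-binding protein, ran from 114.5 to 162 CPM with a median of 124 CPM in Upf2-null blastocysts and from 132 to 234 CPM with a median of 173 CPM in control blastocysts. The groups overlapped, and the log2 fold change was −0.43, with an adjusted p of 0.140 by edgeR and 0.0243 by DESeq2. Tent4b, a poly(A) polymerase that adds tails for the exosome, ran from 37.3 to 101 CPM with a median of 63.2 CPM in Upf2-null blastocysts and from 60.8 to 151 CPM with a median of 80.8 CPM in control blastocysts, for a log2 fold change of −0.44 and an adjusted p of 0.332 by edgeR.

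The NMD factors, which recognise the substrates that this machinery destroys, had a median log2 fold change of 0.53 over 10 genes, 9 above and 1 below 0, where all genes had 8172 above and 8965 below. None was called by edgeR. Upf2 alone of the 10 was called higher by DESeq2 (0.595% of all genes) and by limma voom (0.514%), and it alone was higher at an unadjusted edgeR p under 0.05 (5.15%). Upf2 itself was at 0.66, with an adjusted p of 0.185 by edgeR, 0.0416 by DESeq2 and 0.0228 by limma voom.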

How the data were processed

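Single blastocysts (8 Upf2-null, 11 control) were lysed, amplified with SMARTer v4, made into Nextera XT libraries and sequenced paired-end. The deposited values are counts per gene that the authors made with STAR 2.5.2a on GRCm38, removal of duplicates with SAMtools and featureCounts. Reads for the assembled transcript models were mapped without strand; the strand setting of the gene counts is not given in the sources used here. A deposited table of scaled values and the assembled transcript models were not tested.

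A gene entered the fit where 1 embryo or more had a count of 10 or more. The fit used edgeR 4.0.16 (TMM, robust quasi-likelihood, no covariate, adjusted p under 0.1), with DESeq2 1.42.0 and limma 3.58.1 voom as alternatives. Log2 CPM used a prior count of 2. Embryo numbers did not pair the genotypes (8 pairs, r −0.14 to 0.07). No 2 libraries of a group agreed within sampling noise. The fits were tested on simulated data. Members and lists were chosen with earlier results of these data known. The text names all 42 members, and gives embryo values for those at an unadjusted p under 0.05 and the 2 of lowest p in each role group, and Cnot9, Exosc4, Exosc8 and Dis3l2, chosen after their values were seen. Exosc6 was not analysed here.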

Additional observations from a re-analysis of the deposited data

Results flagged for a closer look

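Among the 42 members, values of the 8 Upf2-null blastocysts were searched for an embryo set apart from the others by a gap above Dixon's critical value of 0.526 of the group's range; the 11 controls were not tested this way. Chance alone gives about 5% of groups such a gap, and 2 of 42 had one. Dis3l was at 18.3 CPM in Upf2-null embryo 6, with the next value at 7.48 CPM. Cnot6l was at 24.9 CPM in Upf2-null embryo 7, with the next value at 12.2 CPM.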

How the results depend on the processing

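The number of members higher in Upf2-null blastocysts was 1 by edgeR, 2 by limma voom, and 0 at an adjusted p of 0.05, with upper-quartile scaling, with the replicate block, without control embryos 2 and 4, and, in alternatives added after the data were seen, without Upf2-null embryos 4, 5 and 7 and control embryo 6 and without the 5 embryos of lowest GC slope. It was 0 to 1 when 1 embryo was left out. The number lower was 0, and 3 at an unadjusted p under 0.05. Pnrc2 stayed higher in all 33 refits (log2 fold change 0.62 to 0.82, adjusted p 0.00520 to 0.831), and the adjusted p was under 0.1 in 15 of them. Embryo numbers shared between genotypes did not pair the samples, and with the replicate block Pnrc2 was at 0.80 with an adjusted p of 0.831. The sign of the log2 fold change held in every refit for 24 of the 42 members. The median level per length was 21.3 CPM per kb and 26.7 with the longest transcript as length. The causes of these changes were not tested. Dcp1b, Dis3l and Cnot6l had the widest intervals of the 42, and Dcp1b, with 80 counts over the Upf2-null and 22 over the control blastocysts, had the fewest counts.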
